A study of Homo sapiens with 8 samples.

Results

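The GADD45 genes (growth arrest and DNA damage inducible) were followed through 4 time points of the differentiation of ESI017, an established human embryonic stem cell line, labelled wild type. The 4 genes were taken by name from 35940 gene symbols: GADD45A, GADD45B and GADD45G, which are paralogues, and GADD45GIP1, which is no paralogue and carries the family's name because its protein was found to bind the GADD45 proteins. They were chosen with their values known: GADD45G was picked for its fall between 34 h and 42 h, so its comparisons with 34 h and 42 h are given below as a description, with no test. Each gene had 1 row in the table, and all 4 reached the minimum of 1 TPM in at least 2 of the 8 libraries that was set for testing. TPM is a share of a library's transcripts corrected for gene length, so levels of different genes can be compared on this scale.

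Cells were seeded in mTeSR1, a stem cell maintenance medium, with ROCK inhibitor. They were then switched to the serum-free medium N2B27 with 10 µM SB and 100 nM LDN. WNT3A protein at 300 ng/mL was added at 34 h, and the labels give the intended outcome as a posterior neural fate. RNA was taken at 34, 42, 50 and 72 h, that is before WNT3A and after 8, 16 and 38 h with it, with 2 poly(A)-enriched libraries at each time, 1 from each of 2 batches. All groups share the line, the medium and the inhibitors, and no culture without WNT3A was analysed here, so time in culture and exposure to WNT3A cannot be told apart. Every comparison with 34 h uses the same 34 h libraries. The series text states an independent biological replicate, and p-values measure the spread between these replicates of 1 line.

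GADD45 proteins are small, acidic proteins with no known enzyme activity that act by binding others. They are known to bind the kinase MAP3K4, which acts above p38 and JNK, to bind the CDK1 and cyclin B1 complex and PCNA, and to have been linked to active DNA demethylation with TET and TDG. GADD45A is known as a target of stress signalling, GADD45B is known as a gene induced by TGF-beta and NF-kappaB, and GADD45G has been described in embryos in cells that are about to leave the proliferating progenitor state, often beside proneural genes. GADD45GIP1, also known as CRIF1 or MRPL59, is a subunit of the large mitochondrial ribosome that serves the insertion of new proteins into the inner mitochondrial membrane.

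By GENCODE release 29 on GRCh38, GADD45A (ENSG00000116717) lies on chromosome 1 from 67685061 to 67688338 on the plus strand. GADD45B (ENSG00000099860) lies on chromosome 19 from 2476122 to 2478259 on the plus strand. GADD45G (ENSG00000130222) lies on chromosome 9 from 89605013 to 89606555 on the plus strand. The paralogues are compact genes of 4 exons each, in the longest protein-coding transcript, and code for proteins of 165, 160 and 159 residues in the order A, B, G. Their proteins were 55.8% identical between A and B, 54.2% between A and G and 55.2% between B and G over all alignment columns, gaps included, by the GENCODE coding sequences. GADD45GIP1 (ENSG00000179271) lies on chromosome 19 from 12953119 to 12957236 on the minus strand, has 2 exons and codes for 222 residues, which were 13.1% to 13.7% identical to the paralogues. No word of 31 bases was shared between the transcripts of any pair, and the longest shared run was 18 bases, between GADD45A and GADD45G.

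The upstream sequences of the paralogues whose levels moved apart, GADD45G and GADD45B, are shown so that their start regions can be compared. Each line gives the 250 bases before the annotated start, 5′ to 3′ on the gene's strand, from RefSeq on GRCh38.p14. Matches to the motifs searched are in capitals.
GADD45G chr9:89604762-89605011 (plus strand): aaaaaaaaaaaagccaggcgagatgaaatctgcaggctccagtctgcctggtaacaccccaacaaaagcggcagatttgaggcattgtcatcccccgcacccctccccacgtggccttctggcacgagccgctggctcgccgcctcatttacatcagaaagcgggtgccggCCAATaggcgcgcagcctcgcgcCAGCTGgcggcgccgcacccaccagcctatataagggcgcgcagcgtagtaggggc
GADD45B chr19:2475877-2476126 (plus strand): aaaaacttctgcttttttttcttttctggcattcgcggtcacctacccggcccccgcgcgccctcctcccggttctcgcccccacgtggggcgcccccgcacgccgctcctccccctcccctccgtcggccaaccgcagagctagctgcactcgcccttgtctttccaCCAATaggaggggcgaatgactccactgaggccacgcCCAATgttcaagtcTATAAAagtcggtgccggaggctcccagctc

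The motifs were searched on both strands in windows from 250 bases before to 50 after the start, which were matched by name for 3 of the 4 genes. CCAAT, the element bound by NF-Y, was found from -79 to -75 in GADD45G and from -82 to -78 and -45 to -41 in GADD45B. Of 35116 promoters of the same length, 34.6% held CCAAT. GADD45G also held the E-box CAGCTG, which is its own reverse complement, from -56 to -51 (17.9% of promoters), and GADD45B held TATAAA from -31 to -26 (11.5% of promoters). Only exact letters were matched. The GADD45G sequence holds the similar letters tatataag near its end, which the search for TATAAA passes over. In GADD45GIP1, TATAAA was found from -138 to -133 and the GC box GGGCGG, on the reverse strand, from -113 to -108 (45.0% of promoters). The letters of the TCF/LEF motifs CTTTGAT (2.62% of promoters) and CTTTGAA (4.43%), of the POU octamer ATGCAAAT (1.77%) and of the E-box CAGATG (14.7%) were in none of these windows. The 250 bases held 20 CG pairs in GADD45G, 21 in GADD45B and 11 in GADD45GIP1, against a median of 11.0 over all promoters of the table. A match is a description of letters, and no binding was measured here.

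The libraries were alike in their general measures. Spearman's rho across genes was 0.980 to 0.984 between libraries of the same time and 0.933 to 0.982 between times, 13860 to 14004 genes were at 1 TPM or above, and mitochondrially encoded genes held 8.70% to 11.2% of the TPM. The summed TPM of 9 pluripotency markers was 4020 to 4115 at 34 h and 2156 to 2252 at 72 h, and that of 8 neural progenitor markers 556 to 566 and 970 to 1043. SOX2 counts in both sums. Pluripotency markers called at 72 h against 34 h were 5 lowered and 1 raised of 9, beside 11.3% and 12.7% of all tested genes. Neural progenitor markers called were 6 raised and none lowered of 7 tested. Of 8 WNT response genes, 6 were raised at 42 h, beside 1.78% of all tested genes, among them AXIN2 from 18.1 to 93.7 TPM and SP5 from 0.180 to 164 TPM. The 8 mesoderm markers summed to 1.81 to 1.9 TPM at 34 h, 10.1 to 16.6 at 42 and 50 h and 3.31 to 3.94 at 72 h, and the 8 neuron markers to 250 to 350 in all libraries. Of the 6 neuron markers tested against 34 h, 3 were raised and none lowered by 72 h, beside 12.7% and 11.3% of all tested genes, among them MAP2 from 28.6 to 67.5 TPM; 1 was raised at 42 h already, and 2 at 50 h. The 8 endoderm markers summed to 18 and 18.7 TPM at 34 h, 16.7 and 17 at 42 h, 9.49 and 9.64 at 50 h, then 7.58 and 9.29 at 72 h. The 3 of them that were tested gave 1 raised at 42 h, 2 lowered at 50 h, then 1 raised and 2 lowered at 72 h. All tested genes gave 1.78% raised, 2.74% lowered, then 12.7% and 11.3%. The 8 neural crest markers summed to 9.02 and 7.37 TPM at 34 h, 6.84 to 10.4 at 42 and 50 h and 16.0 and 14.1 at 72 h. Their 5 tested members gave 3 raised and 1 lowered at 72 h. SOX17 and MSGN1 were listed at 0 in every library. The part of these cell mixtures in the results below was not tested, and in bulk RNA fewer cells of a type and less RNA per cell cannot be told apart.

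GADD45G, the paralogue known from cells leaving a progenitor state, was the only one of the 3 whose level dropped. It stood at 20.8 and 23.7 TPM at 34 h, at 2.37 and 2.25 at 42 h, at 2.02 and 1.79 at 50 h and at 1.70 and 0.636 at 72 h. Counted in TPM, nearly all of the drop lay between 34 h and 42 h, and the later libraries stepped down a little further, with no overlap between neighbouring times. The means were 22.2 ± 2.06, 2.31 ± 0.0821, 1.9 ± 0.161 and 1.17 ± 0.754 TPM (SD, n = 2 each), so the 34 h mean was 9.63-fold that at 42 h, 11.7-fold that at 50 h and 19.0-fold that at 72 h. The 72 h value was 35.0-fold without 72 h replicate 1 and 13.1-fold without 72 h replicate 2. On the scale of log2(TPM + 1), which understates changes of low values, the differences from 34 h were -2.81, -3.0 and -3.46. Within the batches they were -2.69 and -2.93 at 42 h, -2.85 and -3.15 at 50 h, then -3.01 and -3.92 at 72 h. Among the 14908 tested genes GADD45G had the second most negative difference at 42 h, after AL034430.2 at -5.67 and before AC105052.3 at -2.67, and MT1H, a metallothionein, and NPTX1, a secreted neuronal pentraxin, stood at -2.50 and -2.36 (genes named after their values were seen). These values chose the gene and are no test.

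The comparison of 72 h with 50 h was not part of the choice. GADD45G differed there by -0.46 ± 0.25 (log2, SE; 95% interval -1.04 to 0.12; adjusted p = 0.327, limma), with both 72 h libraries below both at 50 h. Within the batches the difference was -0.16 and -0.77, so the second 72 h library, at 0.636 TPM, carried most of it. Without that library the difference was -0.10, and without the first 72 h library it was -0.83. The further decline after 50 h did not pass the test. GADD45G had a residual SD of 0.267 on the log2 scale, which was higher than that of 76.6% of tested genes.

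GADD45B, the paralogue known for induction by TGF-beta and NF-kappaB, moved the other way. It was listed at 2.11 and 2.65 TPM at 34 h, 6.36 and 5.24 at 42 h, 5.05 and 6.79 at 50 h, then 4.21 and 5.26 at 72 h. All 6 later libraries lay above both 34 h libraries, while the 3 later times overlapped one another. The means were 2.38 ± 0.380, 5.80 ± 0.788, 5.92 ± 1.22 and 4.74 ± 0.740 TPM (SD, n = 2 each), which is 2.44-fold, 2.49-fold and 1.99-fold the 34 h mean.

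The rise of GADD45B passed the test at 50 h, with a log2 change of 1.03 ± 0.21 (SE; adjusted p = 0.0266, limma), and at 72 h, with 0.76 ± 0.21 (adjusted p = 0.0337, limma). At 42 h the difference was of the same size, 1.01 ± 0.21 (95% interval 0.52 to 1.49), but its adjusted p was 0.0511 by limma (unadjusted 0.00134). Within the batches the differences were 1.24 and 0.77 at 42 h, 0.96 and 1.09 at 50 h, then 0.75 and 0.78 at 72 h. The calls rest on few libraries and on the settings. The 50 h call was lost with no filter on low values (adjusted p = 0.0745, limma) and with its time points fitted alone (0.0764), and the 72 h call with no filter (0.0755). At 50 h the call was also lost without 34 h replicate 1 (adjusted p = 0.141, limma), 34 h replicate 2 (0.0860), 50 h replicate 1 (0.0530) or 50 h replicate 2 (0.129), and the 72 h call without 34 h replicate 1 (0.147), 34 h replicate 2 (0.0747), 72 h replicate 1 (0.0729) or 72 h replicate 2 (0.170). The direction was upward in each of these. From 42 h to 50 h GADD45B differed by 0.02 (adjusted p = 0.994, limma) and from 50 h to 72 h by -0.26 ± 0.21 (adjusted p = 0.508, limma).

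GADD45A, the paralogue known from stress signalling, tended upward in its means but was called in no comparison. Its level was 11.4 and 13.1 TPM at 34 h, 16.4 and 12.8 at 42 h, 18 and 15.1 at 50 h, then 18.6 and 16.8 at 72 h. The 42 h libraries overlapped those at 34 h, and those at 50 h and 72 h lay above them. The means were 12.2 ± 1.18, 14.6 ± 2.58, 16.6 ± 2.04 and 17.7 ± 1.26 TPM (SD, n = 2 each). The log2 difference from 34 h was 0.23 ± 0.17 at 42 h (adjusted p = 0.640, limma), 0.41 ± 0.17 at 50 h (0.212) and 0.50 ± 0.17 at 72 h (0.0621, 95% interval 0.12 to 0.88). At 42 h it was 0.49 in the first batch and -0.03 in the second, and at 72 h 0.66 and 0.34. Without 42 h replicate 1 the 42 h difference was 0.06, and without 42 h replicate 2 it was 0.40. GADD45A differed by 0.18 between 42 h and 50 h (adjusted p = 0.790, limma) and by 0.09 between 50 h and 72 h (0.802).

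GADD45GIP1, the mitochondrial ribosome subunit, had the highest level of the 4 at every time. It stood at 68.0 and 61.9 TPM at 34 h, 64.0 and 55.9 at 42 h, 74.8 and 60.6 at 50 h, then 47.5 and 54.6 at 72 h. The first 3 times overlapped, and both 72 h libraries lay below all others. The means were 65.0 ± 4.35, 59.9 ± 5.71, 67.7 ± 10.0 and 51.0 ± 5.05 TPM (SD, n = 2 each). None of the 5 comparisons passed the test. The log2 difference from 34 h was -0.12 at 42 h (adjusted p = 0.815, limma), 0.05 at 50 h (0.874) and -0.34 ± 0.14 at 72 h (0.108, unadjusted 0.0362), and it was 0.17 from 42 h to 50 h (0.745). From 50 h to 72 h it was -0.40 ± 0.14 (adjusted p = 0.134, limma; unadjusted 0.0197), with -0.65 and -0.15 within the batches.

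**Figure D1:**
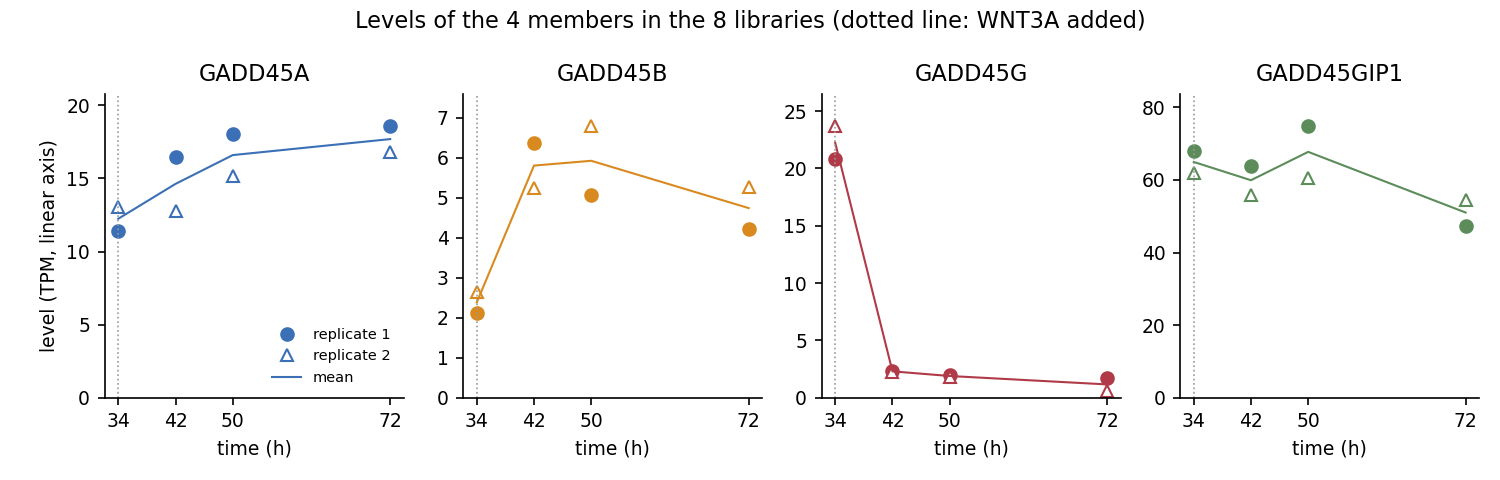
Level in TPM (linear axis from 0, scaled for each gene) of GADD45A, GADD45B, GADD45G and GADD45GIP1 against time in hours; points are the 2 libraries per time, lines join the means and the dotted line marks the addition of WNT3A at 34 h. GADD45G drops from 20.8 and 23.7 TPM at 34 h to 2.37 and 2.25 at 42 h, while all later GADD45B libraries lie above its 34 h libraries.

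The calls of the members are given beside those of all genes. At 42 h 2.58% of the 14908 tested genes were called changed against 34 h and none of GADD45A, GADD45B and GADD45GIP1 was; at 50 h the share was 6.26%, and at 72 h 24.0%, with GADD45B called at both. From 42 h to 50 h 0.0939% of genes were called, or 14 genes (7 with the batch as a replicate block in the fit), and from 50 h to 72 h 7.33%. No member was called in either of those comparisons. An unadjusted p under 0.05 was reached by 2069 genes in the 42 h comparison, by 3068 in that of 50 h and by 5506 in that of 72 h. GADD45B was among them at each time, GADD45A at 50 h and 72 h (unadjusted p = 0.0383 and 0.0164, limma) and GADD45GIP1 at 72 h.

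Libraries that do not overlap are common in this design. The share of tested genes whose 2 libraries lay wholly on one side of the other 2 was 42.4% at 42 h against 34 h, where GADD45B and GADD45G did so. It was 48.4% at 50 h, where GADD45A joined them, and 64.6% at 72 h, where all 4 members did. From 42 h to 50 h it was 37.3%, with GADD45G alone, and from 50 h to 72 h 51.7%, with GADD45G and GADD45GIP1. With 2 libraries a group, the smallest p of an exact permutation test is 0.333, and such a separation is read only beside these shares. In the distribution of all log2 changes, whose median was 0.01 at 42 h and 0.06 at 72 h, GADD45B stood at percentile 97.9 at 42 h, 97.5 at 50 h and 91.0 at 72 h, GADD45A at 81.1, 87.3 and 82.7, and GADD45GIP1 at 29.1, 51.3 and 19.6.

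**Figure D2:**
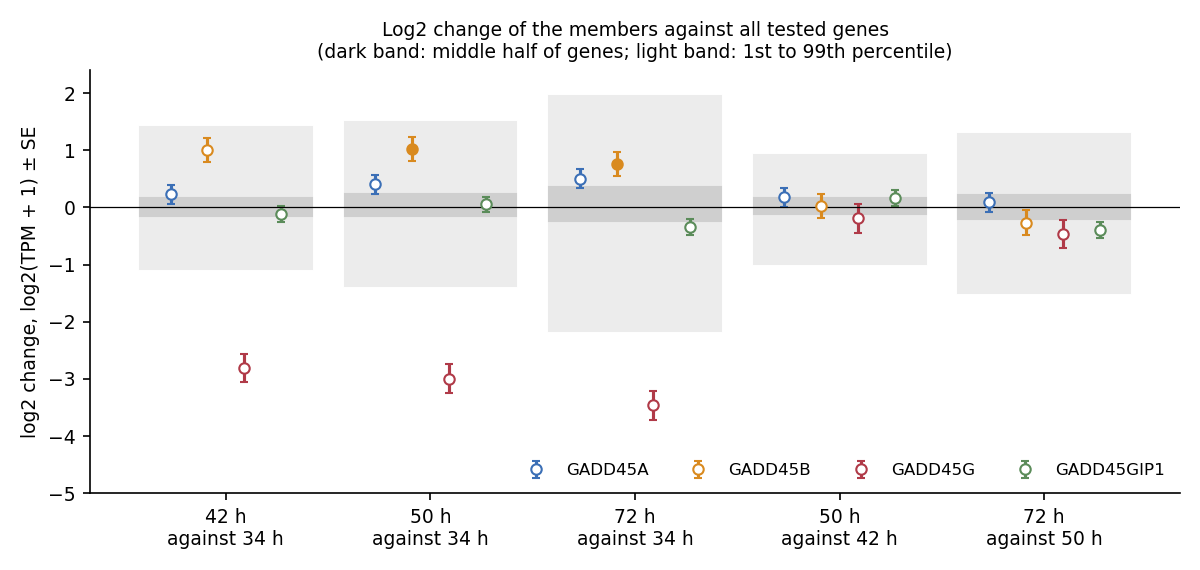
Log2 change (log2 of TPM + 1, ± SE) of each member in the 5 comparisons; filled points passed the test and open points did not or, for GADD45G in every comparison but 72 h against 50 h, were not tested. Bands give the spread of all tested genes. GADD45B is filled at 50 h and 72 h against 34 h (1.03 and 0.76).

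The order of the family members changed once. At 34 h GADD45GIP1 was highest, followed by GADD45G, GADD45A and GADD45B, with steps of 2.92-fold, 1.82-fold and 5.14-fold between neighbouring means. From 42 h on the order was GADD45GIP1, GADD45A, GADD45B and GADD45G, with steps of 4.10-fold, 2.52-fold and 2.51-fold at 42 h and of 2.88-fold, 3.73-fold and 4.05-fold at 72 h. At each time the libraries of neighbours in this order did not overlap. The 34 h mean of GADD45GIP1 was at or above that of 84.4% of tested genes, that of GADD45G 60.9%, of GADD45A 45.9% and of GADD45B 17.2%.

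Summed over the 3 paralogues, the level was 34.3 and 39.4 TPM at 34 h, 25.2 and 20.3 at 42 h, 25.1 and 23.7 at 50 h, then 24.5 and 22.7 at 72 h. The sum was thus lower in all later libraries than at 34 h and level among them, with means of 36.9 ± 3.62, 22.7 ± 3.45, 24.4 ± 0.981 and 23.6 ± 1.27 TPM (SD, n = 2 each). GADD45G made up 60.4% ± 0.346 of it at 34 h, 10.3% ± 1.19 at 42 h, 7.79% ± 0.348 at 50 h and 4.88% ± 2.93 at 72 h. GADD45A went from 33.2% ± 0.0539 at 34 h to 64.2% ± 1.60 at 42 h and 74.9% ± 1.29 at 72 h, and GADD45B from 6.44% ± 0.400 to 25.5% ± 0.406 and 20.2% ± 4.22. Since the sum holds GADD45G, its drop is the same choice seen again, and no test was run on it. A share of a sum also rises when another part falls.

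**Figure D3:**
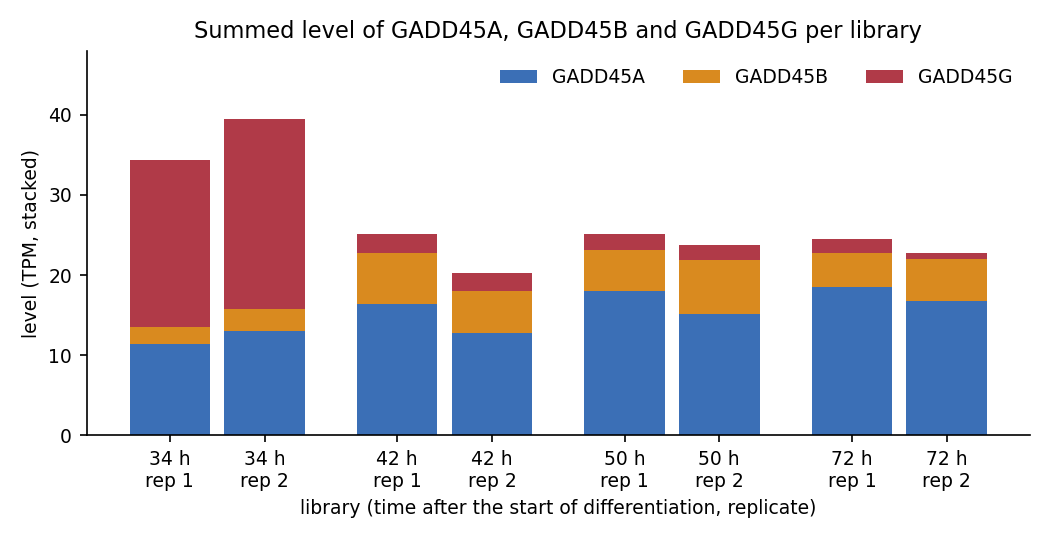
Stacked level (TPM, linear axis from 0) of GADD45A, GADD45B and GADD45G in each of the 8 libraries, in order of time and replicate. GADD45G is the largest part at 34 h and GADD45A from 42 h on, and the sum is 34.3 and 39.4 TPM at 34 h and between 20.3 and 25.2 later.

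Over the 8 libraries, on the log2 scale, GADD45G correlated with GADD45B at r = -0.875 and with GADD45A at -0.747, and GADD45A with GADD45B at 0.601. GADD45GIP1 correlated with GADD45A at -0.239, with GADD45B at -0.154 and with GADD45G at 0.375. These are descriptions over libraries that share times and batches.

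Factors known to act upstream of GADD45 genes were followed as a list of 19, of which 18 were tested. At 42 h 2 were raised and 1 lowered, and at 72 h 1 was raised and 6 were lowered, with median log2 changes of -0.02 and -0.16 beside 0.01 and 0.06 over all genes. Of all tested genes 1.78% were raised and 0.792% lowered at 42 h, and 12.7% and 11.3% at 72 h. FOXO1, a forkhead factor held back by AKT, was at 21.0 and 18.7 TPM at 34 h, 7.62 and 8.06 at 42 h, 7.49 and 7.32 at 50 h, then 3.90 and 4.31 at 72 h. It fell by 42 h (log2 change -1.24 ± 0.14; adjusted p = 0.0035, limma) and again between 50 h and 72 h (-0.72; 0.0227). SMAD3, a transducer of TGF-beta and activin, rose from a mean of 12.1 TPM at 34 h to 28.0 at 42 h (log2 change 1.18 ± 0.24; adjusted p = 0.045, limma) and 34.0 at 72 h, and SMAD2 rose from 51.1 to 79.9 TPM at 42 h (0.64; 0.0187). NFKB1 and RELA, the NF-kappaB genes of the list, were called in no comparison. They differed at 42 h by 0.03 and -0.08 (adjusted p = 0.986 and 0.924, limma). A link of any of these factors to the GADD45 levels was not tested. The other genes of the list that fell by 72 h were TP73, ATF3, ATF4, DDIT3 and CEBPB, of which ATF3, ATF4 and DDIT3 also stand in the stress list below.

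Most of the stress-inducible genes listed fell late. Of 14 genes, 1 was lowered at 42 h and 4 at 50 h. By 72 h this was 11, and none was raised at any time, with median log2 changes of -0.12, -0.36 and -0.88 at the 3 times, beside 0.01, 0.04 and 0.06 over all tested genes. Of all tested genes, 0.792%, 2.74% and 11.3% were lowered at the same times. CHAC1, a glutathione-degrading enzyme, averaged 55.0 TPM at 34 h, 44.9 at 42 h, 28.5 at 50 h and 7.55 at 72 h (log2 change at 72 h -2.71 ± 0.13; adjusted p = 7.55e-06, limma). ASNS, asparagine synthetase, went from 309 to 86.1 TPM (-1.81; 0.000126), and DDIT3, the factor CHOP, from 21.4 to 4.92 TPM (-1.96; 0.00239). ATF4, the factor that drives many of these genes, averaged 568 TPM at 34 h and 415 at 72 h (-0.45; adjusted p = 0.00919, limma). DDIT4, an inhibitor of mTORC1, was the only one called at 42 h, at 61.3 TPM against 107 (-0.79; 0.0193). At 72 h against 34 h the log2 differences of GADD45A and GADD45B were 0.50 and 0.76. The other members of the list that were lowered at 72 h were ATF3, TRIB3, SESN2, HERPUD1, XBP1 and VLDLR.

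Of 17 immediate early genes 15 were tested. None was called at 42 h or 50 h, and at 72 h 2 were raised and 3 lowered, where 12.7% of all tested genes were raised and 11.3% lowered. EGR2, a zinc finger factor that also marks hindbrain segments, rose from 1.03 to 42.8 TPM (log2 change 4.46 ± 0.27; adjusted p = 2.04e-05, limma), BTG2, an antiproliferative gene, from 3.07 to 10.6 TPM (1.52; 0.0038), and JUN fell from 9.94 to 4.26 TPM (-1.06; 0.00282).

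Genes for known binding partners of the GADD45 proteins are given next, beside the 12.7% of all tested genes raised and 11.3% lowered at 72 h. Of 10 genes for kinases of the p38 and JNK pathways, 9 were tested, and none was called at 42 h or 50 h. At 72 h 2 were called raised, MAP2K6 (log2 change 0.44; adjusted p = 0.0343, limma) and MAPK11. MAPK11 was at 0.833 and 0.327 TPM at 34 h and at 2.74 and 2.11 at 72 h. It reached the minimum for testing only through its later libraries, so its call is no finding. MAP3K4, the kinase that GADD45 proteins are known to activate, stood at 22.6 and 28.5 TPM at 34 h and at 26.9 and 30.4 at 72 h, with overlapping libraries (0.16; adjusted p = 0.459, limma). MAP2K7, a kinase above JNK that GADD45B is known to bind, averaged 30.3 TPM at 34 h and 35.1 at 72 h (0.20; 0.281). The count of 2 was 0 without 34 h replicate 2 or either 72 h library.

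Of the 5 cell cycle partners 1 was raised at 50 h and 2 at 72 h, beside 3.52% and 12.7% of all tested genes. CDKN1A, the cyclin-dependent kinase inhibitor p21, was at 8.67 and 11.7 TPM at 34 h, 20.7 and 16.0 at 42 h, 26.7 and 21.1 at 50 h, then 16.8 and 23.3 at 72 h. Its libraries after 34 h all lay above those at 34 h, and it rose at 50 h (log2 change 1.16 ± 0.22; adjusted p = 0.02, limma) and 72 h (0.91; 0.0211). CCNB2, a B-type cyclin, rose at 72 h (0.43; adjusted p = 0.0171, limma). CDK1, the mitotic kinase, averaged 97.3 TPM at 34 h and 122 at 72 h (0.33; 0.0845), CCNB1, its cyclin, 282 and 297 TPM (0.08; 0.528), and PCNA, the replication clamp, 353 and 376 TPM (0.09; 0.466). Of 18 genes of the G2 and M phases, 6 were raised and 1 lowered at 72 h, with a median of 0.28 (all tested genes: 12.7% raised, 11.3% lowered, median 0.06), and none was called at 42 h or 50 h. CENPE, a mitotic motor, rose from 12.1 to 20.5 TPM (0.72; adjusted p = 0.0267, limma) and CDC25B, a phosphatase that activates CDK1, from 18.7 to 28.3 TPM (0.58; 0.0228), while BUB1, a checkpoint kinase, fell from 173 to 117 TPM (-0.56; 0.00354). The 7 genes called were 1 without 72 h replicate 2, 2 without 72 h replicate 1 and 4 without either 34 h library.

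Among 9 genes of DNA demethylation and base excision repair, TET3, a methylcytosine dioxygenase, rose at 72 h (from 10.5 to 15 TPM; log2 change 0.48; adjusted p = 0.0426, limma) and no other gene was called in any comparison with 34 h. TET1 averaged 11.3, 14.8, 15.2 and 14.3 TPM (adjusted p = 0.176 at 72 h, limma), and TDG, the thymine DNA glycosylase, 57.8 TPM at 34 h and 54.4 at 72 h (0.665).

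Of 23 proneural, Notch and early neuronal genes, the company in which GADD45G has been described, 11 were tested. The other 12 were under 1 TPM in every library. None was called at 42 h or 50 h. At 72 h JAG1, a Notch ligand, was raised from 17.8 to 34.6 TPM (log2 change 0.92; adjusted p = 0.0029, limma) and MFNG, a glycosyltransferase of Notch, from 2.24 to 8.37 TPM (1.56; 0.00247), beside 12.7% of all tested genes raised. INSM1, a zinc finger gene of endocrine and neuronal cells, was called lowered, but it reached the minimum for testing only through its 34 h libraries (1.10 and 1.09 TPM), so this call is no finding.

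GADD45GIP1 was set beside the other proteins of its ribosome. Of 49 genes of the large mitochondrial ribosomal subunit, none was called at 42 h or 50 h, and at 72 h 10 were lowered and none raised, with a median log2 change of -0.21, beside 11.3% of all tested genes lowered and a median of 0.06. Examples are MRPL2, from 71.5 to 52.2 TPM (-0.45; adjusted p = 0.0309, limma), MRPL13, from 82.5 to 60.8 TPM (-0.44; 0.0306), and MRPL3, from 184 to 135 TPM (-0.43; 0.0465). The log2 difference of GADD45GIP1 itself at 72 h, -0.34, did not pass the test. The count of 10 was 0 without 34 h replicate 1, 2 without 34 h replicate 2, 1 without either 72 h library, 5 without either 42 h library and 0 with a variance that did not follow the mean level. Of 10 genes of membrane insertion and mitochondrial translation 2 were lowered at 72 h, beside 11.3% of all tested genes. SLIRP, an RNA stability factor, fell from 817 to 538 TPM (-0.60; 0.000817) and GFM1, an elongation factor, from 32.3 to 20.6 TPM (-0.62; 0.0146). OXA1L, the insertase to which GADD45GIP1 is known to bind, averaged 104 TPM at 34 h and 94.8 at 72 h (-0.13; adjusted p = 0.384, limma).

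**Figure D4:**
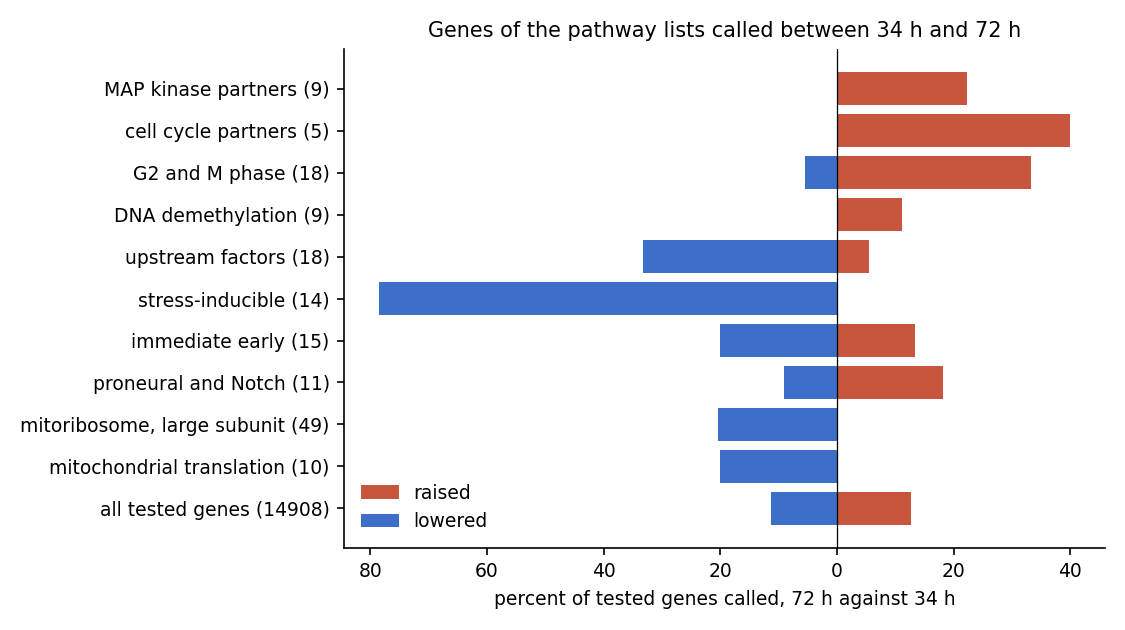
Percent of the tested genes of each pathway list called raised (right) or lowered (left) at 72 h against 34 h, with all tested genes for comparison and the number tested in brackets. The stress-inducible genes reach furthest to the left, with 11 of 14 lowered, against 11.3% of all tested genes.

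The genes whose pattern was most like that of each member were taken by Pearson's r of log2(TPM + 1) over the 8 libraries. For GADD45G they were SVOPL (r = 0.989), a transporter-like gene, TMPRSS3 (0.984), a serine protease, EEF2K (0.981), the kinase of elongation factor eEF2, ECEL1P1 (0.980), a pseudogene, and AC012512.1 (0.979). SVOPL was at 1.99 and 2.04 TPM at 34 h and at 0.517 to 0.930 in all later libraries. ECEL1P1 was at 7.76 and 9.0 TPM at 34 h, 1.74 and 1.61 at 42 h, then 0.450 and 0.457 at 72 h. EEF2K was at 6.94 and 7.53 at 34 h and 4.24 to 5.13 later. That all 5 were high at 34 h and low afterwards restates how they were chosen, and SVOPL, TMPRSS3 and AC012512.1 reached the minimum for testing only through their 34 h libraries. Among the tested genes 47 had r above 0.95 with GADD45G.

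**Figure D5:**
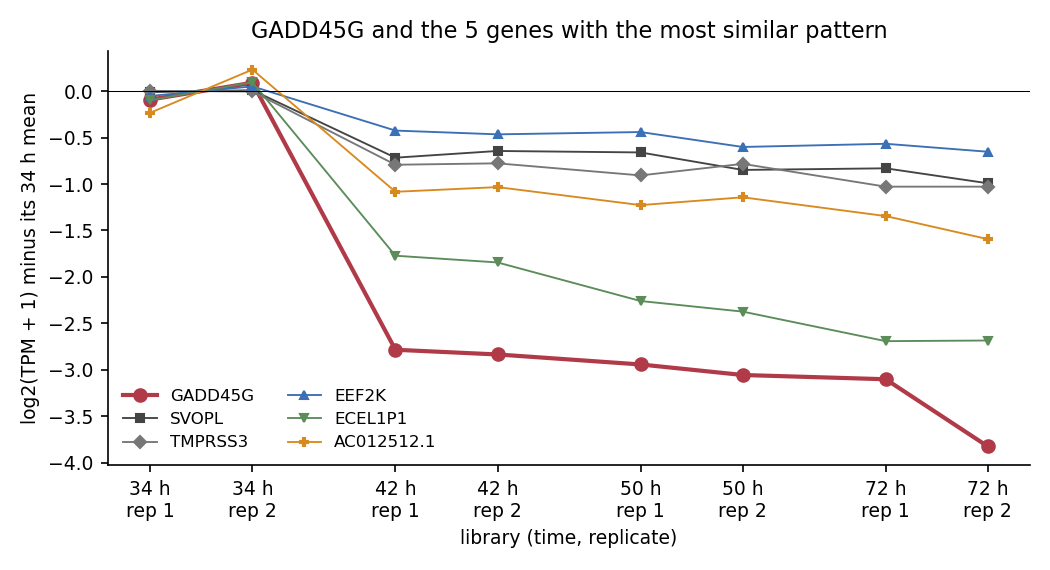
Log2(TPM + 1) minus its own 34 h mean in each library for GADD45G and for SVOPL, TMPRSS3, EEF2K, ECEL1P1 and AC012512.1. GADD45G reaches differences near -2.81 at 42 h, and the other 5 step down at the same time by less.

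For GADD45B the most alike were WIF1 (r = 0.983), a secreted WNT inhibitor, ZNF611 (0.973), a zinc finger gene, ST6GALNAC5 (0.971), a sialyltransferase, EIF4ENIF1 (0.969), a shuttling factor of eIF4E, and CAMK2D (0.965), a calmodulin-dependent kinase. WIF1 was at 2.49 and 3.26 TPM at 34 h, 9.07 and 8.21 at 42 h, 8.19 and 11.6 at 50 h, then 6.42 and 6.69 at 72 h, and like GADD45B it was higher in the second library than in the first at 34, 50 and 72 h and lower at 42 h. WIF1 was chosen by its correlation over these same libraries, so this restates the choice and is no further likeness. For GADD45A they were INPPL1 (0.984), the lipid phosphatase SHIP2, SLC25A30 (0.965), a mitochondrial carrier, TMEM164 (0.965), IFFO1 (0.955) and HOMEZ (0.954), a homeobox gene. INPPL1 ran from 83.4 and 92.2 TPM at 34 h to 142 and 130 at 72 h. For GADD45GIP1 they were CD3EAP (0.989), a subunit of RNA polymerase I, EIF3G (0.974), a translation initiation factor, NUDC (0.971), a dynein-associated chaperone, DDX56 (0.969), a nucleolar helicase, and TOMM40 (0.968), the channel of protein import into mitochondria. Chosen by Spearman's rho in place of Pearson's r, the 5 most alike shared 1 gene for GADD45A, 0 for GADD45B, 0 for GADD45G and 2 for GADD45GIP1, and chosen on the 4 time means they shared 0 for each, so the named genes depend on the measure.

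Neither tested protein-coding neighbour of GADD45G was called at 42 h. SEMA4D, a semaphorin 107 kb away on the lower side, averaged 34.7 TPM at 34 h and 29.5 at 42 h (log2 change -0.22; adjusted p = 0.631, limma), and SYK, a kinase gene 1195 kb away on the higher side, 2.09 and 2.58 TPM (0.14; 0.929). Beside GADD45B, LMNB2, a nuclear lamin gene 19.1 kb away, averaged 122 TPM at 34 h and 133 at 42 h (0.12; 0.813) and rose to 173 at 72 h (0.50; 0.0342), and GNG7, a G protein subunit gene 33.0 kb away, averaged 5.12 and 9.35 TPM at 34 h and 72 h (0.77; adjusted p = 0.0633, limma). Beside GADD45A, SERBP1 and GNG12 differed at 72 h by -0.06 and 0.36 (adjusted p = 0.588 and 0.274, limma). Beside GADD45GIP1, CALR averaged 635 TPM at 34 h and 622 at 72 h (-0.03; 0.833), and TRMT1, a tRNA methyltransferase gene 148 kb away, fell from 72.6 to 47.1 TPM (-0.61; 0.009).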

How the data were processed

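The authors deposited TPM for Ensembl genes, with a column for each library. The submitters' processing notes name Salmon 1.9.0 and GRCh38, and the annotation and filters are not given in the sources used here. TPM keeps no read numbers, so depth is unknown and no counting interval is given.

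Rows were summed by symbol (37951 rows, 35940 symbols). The 14908 genes that reached 1 TPM in 2 or more of the 8 libraries were tested. In limma 3.58.1 (R 4.3.3), log2(TPM + 1) of every library was fitted with 1 mean per time, and variances were moderated along a trend with the mean level. Adjusted p-values are two-sided Benjamini-Hochberg values over all tested genes, and a gene was called at an adjusted p under 0.05. Raised and lowered name the sign of a call. The fit was tested on simulated data.

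The members and the 18 lists were chosen with earlier results of these data known, so counts over lists are descriptions beside all tested genes. 1 list and some genes are not reported here. Of the 241 listed genes 211 were tested. Named in each list were up to 4 called genes with the highest change and at least 5 TPM at the higher time, with a few set partners and, for each member, the 5 genes most correlated with it; list members outside this rule were named after their values were seen.

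The replicate number is also the batch number in the labels, which pairs the libraries. Replicate differences of 2 times correlated across genes between -0.104 and 0.195. Alternatives were another pseudocount, filter, scaling or variance model, pairs of times fitted alone, the batch as a block, a minimum change, rows kept apart and each library left out.

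Loci came from GENCODE release 29 (GRCh38) by Ensembl identifier, upstream sequences from RefSeq (GRCh38.p14). Alignments used Biopython 1.88.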

Additional observations from a re-analysis of the deposited data

How the results depend on the processing

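GADD45B, GADD45A and GADD45GIP1 kept the direction of each comparison with 34 h under every alternative run, except GADD45GIP1 at 50 h. GADD45B at 42 h passed the test with a pseudocount of 0.1 (log2 change 1.25; adjusted p = 0.0453, limma), with quantile normalization (1.01; 0.0472) and without the mean trend (1.01; 0.0464); over 18 alternatives its adjusted p ran from 0.0453 to 1. Its call at 50 h was lost with no filter (1.03; 0.0745), with the time points fitted alone (1.03; 0.0764) and against a minimum log2 change of 1 (1.03; adjusted p of 1), and held in 11 of 18. Its call at 72 h was lost with no filter (0.762; 0.0755) and against a minimum log2 change of 1 (0.762; adjusted p of 1), and held in 12 of 18. Leaving out 1 library gave 0.845 to 1.21 at 50 h and 0.630 to 0.894 at 72 h. With a mean of at least 5 TPM required, GADD45B was not tested. GADD45A at 72 h passed in none of 19 alternatives (adjusted p 0.0536 to 1, limma).

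With a pseudocount of 0.1 the differences of GADD45G from 34 h were -3.21, -3.48 and -4.27 at 42, 50 and 72 h, and -0.268 from 42 h to 50 h. With the pseudocount of 1 the last was -0.19, and leaving out 1 library gave -0.246 to -0.133. Reversed directions were small: GADD45B from 42 h to 50 h with TMM rescaling (-0.014) and with 1 library left out (-0.163 to 0.200), GADD45GIP1 at 50 h against 34 h with 1 library left out (-0.0961 to 0.203) and GADD45A from 50 h to 72 h likewise (-0.0286 to 0.209).

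The counts of changed genes were 384, 933, 3578, 14 and 1093 in the order of the 5 comparisons. Against a minimum log2 change of 1 they were 41, 84, 352, 1 and 47. With the time points fitted alone they were 545 for 50 h against 34 h, 1 for 50 h against 42 h and 661 for 72 h against 50 h. From 42 h to 50 h they were 8 with no filter, 24 with a mean of at least 5 TPM, 27 without the mean trend, 4 with Ensembl rows apart and 7 with the replicate block, which changed no call of a member. Leaving out 1 library gave 161 to 372, 398 to 793, 1867 to 3629, 1 to 8 and 316 to 911. The share of raised among called genes from 42 h to 50 h was 64.3%, against 47.4% with TMM rescaling and 45.0% with quantile normalization. At 50 h against 34 h it was 56.3%, against 47.6% and 49.6%, and at 72 h against 34 h 53.1% (1900 raised, 1678 lowered), against 43.7% (1552 raised, 2003 lowered) and 47.7% (1638 raised, 1796 lowered), so the majority turned with either scaling. Of 1710 counts over the lists under alternatives, 264 differed from the main count by more than 1.5 times or stood above a main count of none.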
